A study of Mus musculus with 9 samples.

Results

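The sterol and fatty acid synthesis genes are 32 named genes of the pathways by which a cell makes cholesterol and long-chain fatty acids, together with the proteins that switch these pathways on and off. They were chosen by name from pathway knowledge after differences between treated and control cells in these same arrays had been seen. Their differences from control are therefore given as a description, with the calls of the table-wide fit, and support nothing on their own. A single-symbol transcript cluster (the probes grouped for 1 transcript) was found for 28 of the 32, out of 30050 genes measured in this way. No value is given for Srebf1, Msmo1 and Scd2, whose clusters carried a second symbol, or for Tm7sf2, which had no listed cluster.

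The arrays held RNA of mouse cells labelled HL-1, in 3 groups of 3 arrays. HL-1 is known as an atrial cardiomyocyte line that divides in culture. Of 7 measured genes that mark heart muscle cells, only 2 lay above the dim limit defined below. Myh6, Nppa, Myl7, Gata4 and Tnni3 lay under it in every group. Tnnt2, the brightest of the 7, averaged log2 6.52 in DOX plus IFN-γ, 6.70 in DOX and 7.94 in Con, groups described next. DOX plus IFN-γ cells received 0.3 µM doxorubicin, an anthracycline that poisons topoisomerase II, together with 20 ng/ml interferon gamma, a cytokine. DOX cells received 0.3 µM doxorubicin, and Con cells received phosphate-buffered saline (PBS). How long the cells were treated is not stated in the labels, and no group with interferon gamma alone was analysed here. Nothing in the labels made the replicates separate cultures, so p-values and intervals measure only the spread between arrays, which may be technical.

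Cholesterol is built from acetyl-CoA through mevalonate and the isoprenoids to squalene, which is closed into a sterol ring and then trimmed and reduced to cholesterol. Fatty acids are built from the same acetyl-CoA by a carboxylase and a synthase, then lengthened by elongases and given double bonds by desaturases. Both branches are known targets of the sterol regulatory element-binding proteins (SREBPs), membrane-bound transcription factors that are carried by SCAP to the Golgi and cut there when sterols are scarce. INSIG proteins hold SCAP in the endoplasmic reticulum when sterols are plentiful. In heart muscle cells cholesterol and unsaturated lipids are components of the sarcolemma and its invaginations.

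Doxorubicin-treated cells carried less RNA of most of these genes than control cells, with or without interferon gamma. The median difference over the 28 genes was -0.74 on the log2 scale in DOX plus IFN-γ against Con and -0.60 in DOX against Con, beside -0.02 (DOX plus IFN-γ) and -0.01 (DOX) over all genes. The largest falls were those of Fdps, the farnesyl diphosphate synthase, and Fads2, the delta-6 fatty acid desaturase. Of the measured genes, 22 were called lower in DOX plus IFN-γ than in Con (9.41% of all genes were) and 0 higher (8.01% of all genes). In DOX against Con 21 were called lower, where 7.53% of all genes were, and 0 higher, where 8.06% of all genes were. A gene was called when its limma p, adjusted by Benjamini-Hochberg over all 30050 genes, was under 0.05. Both comparisons use the same Con arrays, so their values are set side by side and are not independent.

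In 24 of the 28 genes all DOX plus IFN-γ arrays lay below all Con arrays, as in 18.5% of all genes. In DOX the number was also 24 of the 28, against 17.2% of all genes. Called falls reached 2-fold or more in 9 of the 28 genes in each comparison. Of all 30050 genes they did so in 440 in DOX plus IFN-γ and in 327 in DOX. The 7 genes not called in DOX against Con were Mvk, Pmvk, Hsd17b7, Sc5d, Insig2, Scap and Acss2, and of these Hsd17b7 was called lower in DOX plus IFN-γ. Because the genes were chosen with these contrasts in view, nothing is read from the excess of called genes over the share in the whole table.

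**Figure D1:**
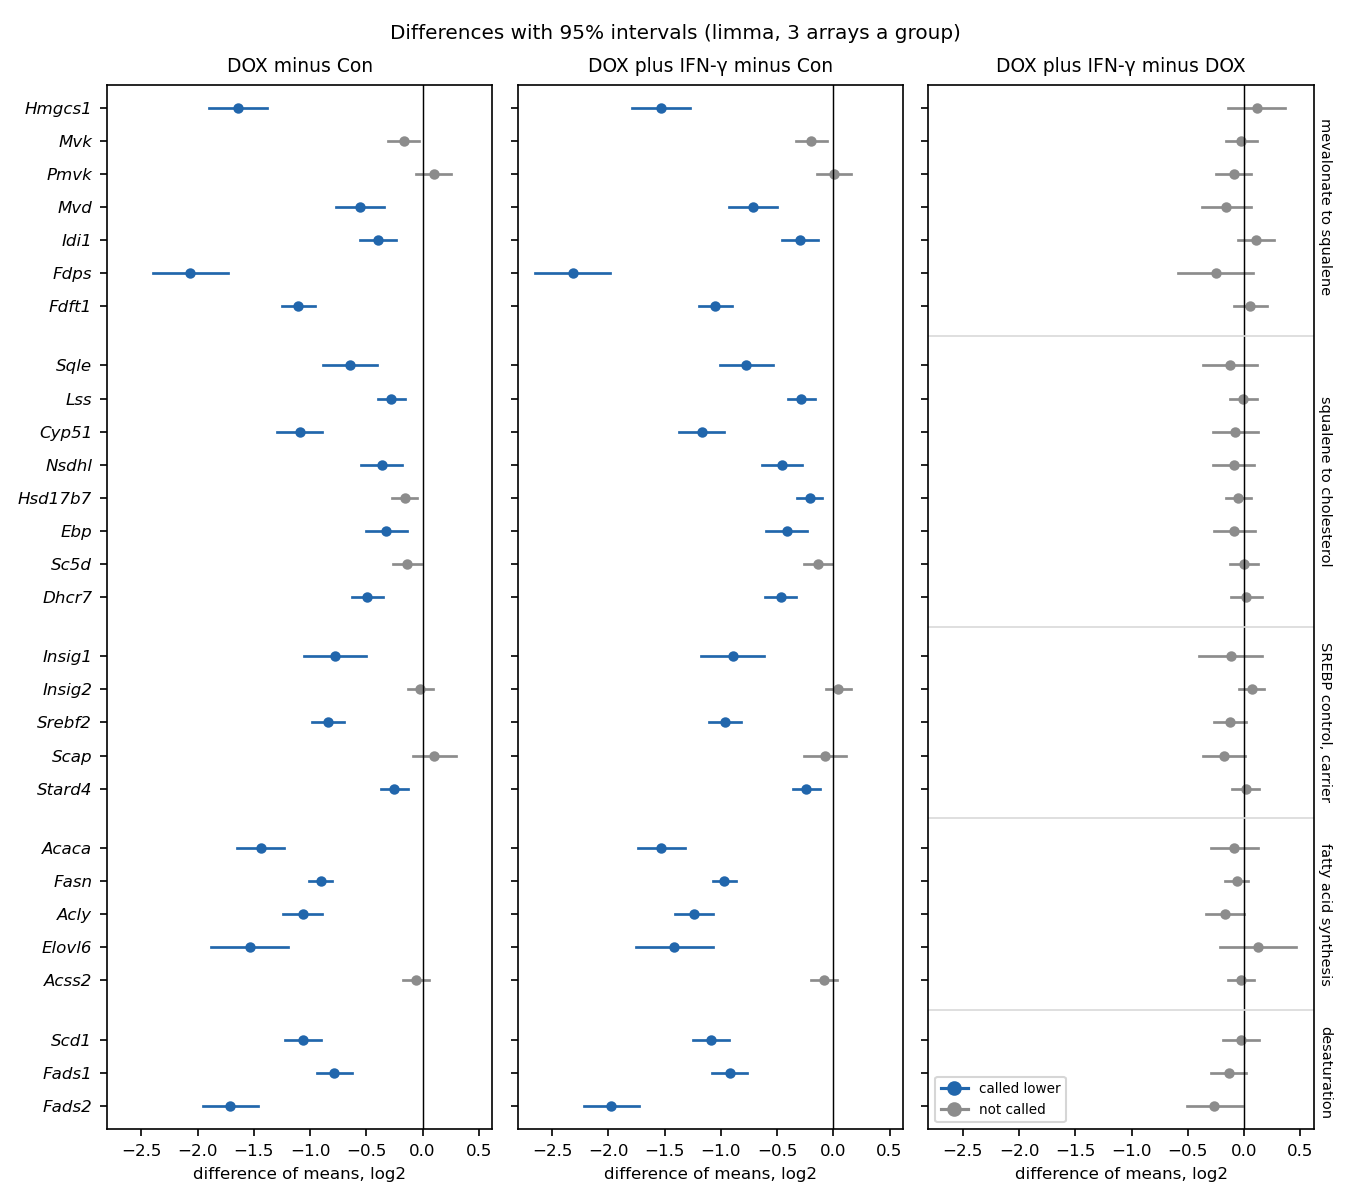
Difference of group means on the log2 scale with its 95% interval (bars) for the 28 genes, ordered by pathway step, in DOX minus Con, DOX plus IFN-γ minus Con, and DOX plus IFN-γ minus DOX; blue marks genes called lower. Most intervals in the first and middle panels lie left of 0, with the lowest differences, -2.07 and -2.32, those of Fdps, while in the right panel differences stay between -0.27 and 0.12.

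The steps from acetoacetyl-CoA to squalene had 5 of 7 genes called lower in both comparisons. Fdps, which makes the farnesyl diphosphate used for sterols and protein prenylation, lay at log2 5.40, 5.37 and 5.71 in DOX plus IFN-γ, at 5.71, 5.69 and 5.83 in DOX and at 7.68, 7.60 and 8.14 in Con. All treated arrays were thus below all control arrays by more than a log2 unit. Its difference from Con was -2.32 in DOX plus IFN-γ (SE 0.15, 4.99-fold lower) and -2.07 in DOX (SE 0.15, 4.19-fold lower). Ranked from the lowest difference among all genes, it stood at place 41 in DOX plus IFN-γ and at place 68 in DOX.

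Hmgcs1, the cytosolic HMG-CoA synthase at the entry to the mevalonate pathway, lay at 4.36, 4.44 and 4.63 in DOX plus IFN-γ, at 4.40, 4.37 and 4.34 in DOX and at 6.25, 5.98 and 5.81 in Con. The treated arrays did not overlap the control arrays, and Con replicate 1 was the highest. It fell by 1.53 on the log2 scale in DOX plus IFN-γ (SE 0.11) and by 1.64 in DOX (SE 0.11). Both treated means lay below 4.75, a dim limit taken as the 95th percentile of 1225 olfactory receptor genes, so the fall can be understated.

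Fdft1, the squalene synthase that commits farnesyl units to sterols, lay at 4.75, 4.76 and 4.88 in DOX plus IFN-γ, at 4.65, 4.84 and 4.74 in DOX and at 5.80, 5.90 and 5.85 in Con. Its arrays were tight in each group, and treated values ended close to the dim limit. Its difference was -1.05 (SE 0.06) in DOX plus IFN-γ and -1.11 (SE 0.06) in DOX. Mvd, the mevalonate diphosphate decarboxylase, lay at 5.31, 5.09 and 5.31 in DOX plus IFN-γ, at 5.34, 5.50 and 5.34 in DOX and at 5.85, 5.88 and 6.11 in Con. Groups again did not overlap, with differences of -0.71 (SE 0.09) in DOX plus IFN-γ and -0.55 (SE 0.09) in DOX.

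Idi1, the isopentenyl diphosphate isomerase, was dim on most arrays, with a mean of 4.41 in DOX plus IFN-γ, 4.30 in DOX and 4.70 in Con. It was called lower in both comparisons, by -0.29 (SE 0.07) in DOX plus IFN-γ and -0.40 (SE 0.07) in DOX. The kinases Mvk and Pmvk, which phosphorylate mevalonate one after the other, were not called. Mvk differed from Con by -0.19 in DOX plus IFN-γ (95% interval -0.33 to -0.06) and by -0.17 in DOX (-0.30 to -0.03), and lay under the dim limit in all groups. Pmvk, with array values between 4.80 and 5.05, differed by 0.01 in DOX plus IFN-γ (-0.15 to 0.16) and by 0.10 in DOX (-0.06 to 0.25).

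**Figure D2:**
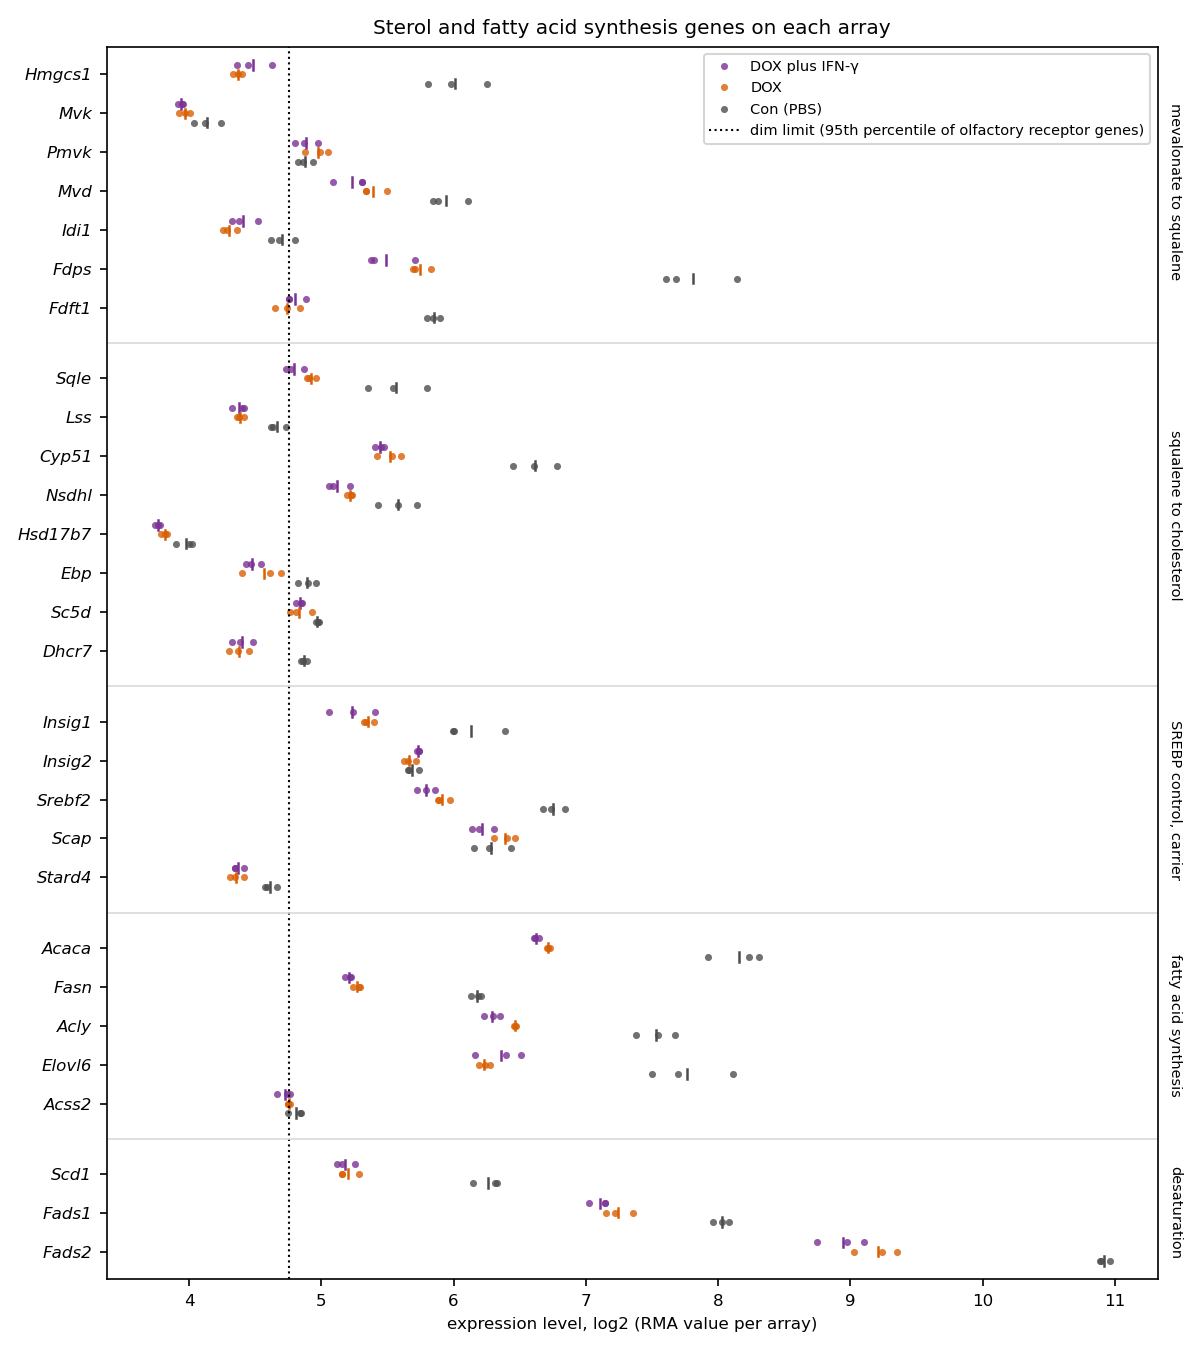
Log2 expression level of each gene on each of the 9 arrays (points) with the group mean (vertical tick), for DOX plus IFN-γ, DOX and Con from top to bottom within a gene; the dotted line is the dim limit of 4.75. Control points of Fdps, Hmgcs1, Acaca, Elovl6 and Fads2 stand clear to the right of all treated points, while those of Scap, Insig2 and Pmvk overlap with them.

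Of the 8 measured genes between squalene and cholesterol, 7 were called lower in DOX plus IFN-γ and 6 in DOX. Cyp51, the lanosterol 14-alpha-demethylase, lay at 5.47, 5.40 and 5.45 in DOX plus IFN-γ, at 5.42, 5.61 and 5.54 in DOX and at 6.61, 6.79 and 6.45 in Con. It had the largest fall of this stretch, -1.17 (SE 0.09) in DOX plus IFN-γ and -1.09 (SE 0.09) in DOX. Sqle, the squalene epoxidase and an oxygen-dependent control step, lay at 4.77, 4.73 and 4.87 in DOX plus IFN-γ, at 4.89, 4.91 and 4.96 in DOX and at 5.80, 5.54 and 5.35 in Con. The control arrays were the most scattered (SD 0.23, against 0.07 in DOX plus IFN-γ and 0.04 in DOX), yet none reached the treated range. Sqle differed from Con by -0.77 (SE 0.10) in DOX plus IFN-γ and by -0.65 (SE 0.10) in DOX.

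The other enzymes of this stretch had smaller differences. Dhcr7, which makes the last reduction to cholesterol, fell to a mean of 4.40 in DOX plus IFN-γ and of 4.38 in DOX, against 4.87 in Con, a difference of -0.47 (SE 0.06) in DOX plus IFN-γ and of -0.49 (SE 0.06) in DOX. Nsdhl, a 4-methylsterol dehydrogenase, differed by -0.46 (SE 0.08) in DOX plus IFN-γ and by -0.36 (SE 0.08) in DOX. Ebp, the sterol delta8-delta7 isomerase, differed by -0.41 (SE 0.08) in DOX plus IFN-γ and by -0.32 (SE 0.08) in DOX. Lss, the lanosterol synthase, differed by -0.28 (SE 0.05) in each comparison. The keto-reductase Hsd17b7 was dim everywhere and differed by -0.21 (SE 0.05, called) in DOX plus IFN-γ and by -0.16 (SE 0.05, not called) in DOX. Sc5d, the lathosterol desaturase, was not called, at -0.13 (95% interval -0.26 to -0.01) in DOX plus IFN-γ and -0.14 (-0.26 to -0.01) in DOX. All treated arrays of Hsd17b7 and Sc5d nonetheless lay below all control arrays.

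The genes that control the pathway did not move together. Srebf2, which encodes the SREBP of the sterol branch, lay at 5.79, 5.73 and 5.86 in DOX plus IFN-γ, at 5.89, 5.97 and 5.88 in DOX and at 6.73, 6.85 and 6.68 in Con. Treated arrays were all below control arrays, by -0.96 on average in DOX plus IFN-γ (SE 0.06, 1.95-fold lower) and -0.84 in DOX (SE 0.06, 1.79-fold lower). Insig1, the sterol-responsive anchor of SCAP, lay at 5.24, 5.41 and 5.06 in DOX plus IFN-γ, at 5.34, 5.40 and 5.32 in DOX and at 6.01, 6.39 and 5.99 in Con. It fell by 0.90 in DOX plus IFN-γ (SE 0.12) and by 0.78 in DOX (SE 0.12), with no overlap.

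Insig2, the related anchor that is known in liver to respond to other signals, lay at 5.72, 5.74 and 5.74 in DOX plus IFN-γ, at 5.63, 5.66 and 5.72 in DOX and at 5.74, 5.66 and 5.66 in Con. The groups overlapped, and its difference from Con was 0.05 in DOX plus IFN-γ (95% interval -0.06 to 0.16) and -0.02 in DOX (-0.13 to 0.09). Scap, the escort of the SREBPs, lay at 6.14, 6.19 and 6.31 in DOX plus IFN-γ, at 6.41, 6.46 and 6.31 in DOX and at 6.16, 6.27 and 6.44 in Con. Its groups overlapped too, with differences of -0.07 (-0.26 to 0.12) in DOX plus IFN-γ and 0.11 (-0.08 to 0.30) in DOX. Stard4, a cytosolic sterol carrier, was dim and called lower by -0.24 (SE 0.05) in DOX plus IFN-γ and -0.25 (SE 0.05) in DOX.

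The promoters of 4 of these genes are shown because they differ in the motifs that SREBPs and their partner factors are known to bind. The windows are the 250 bases before the gene start, from RefSeq on build GRCm38.p6, 5′ to 3′ in the direction of the gene. Capitals mark matches on either strand to the sterol regulatory element TCACNCCAC with at most 1 mismatch, to the E-box CACGTG and to the NF-Y box CCAAT.
Hmgcs1, chr13:119690101-119690350, plus strand: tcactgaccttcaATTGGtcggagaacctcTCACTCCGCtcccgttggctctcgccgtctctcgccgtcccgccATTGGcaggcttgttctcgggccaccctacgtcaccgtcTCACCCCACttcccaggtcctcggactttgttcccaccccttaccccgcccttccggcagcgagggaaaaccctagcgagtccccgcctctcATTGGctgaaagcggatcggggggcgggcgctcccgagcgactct
Srebf2, chr15:82147019-82147268, plus strand: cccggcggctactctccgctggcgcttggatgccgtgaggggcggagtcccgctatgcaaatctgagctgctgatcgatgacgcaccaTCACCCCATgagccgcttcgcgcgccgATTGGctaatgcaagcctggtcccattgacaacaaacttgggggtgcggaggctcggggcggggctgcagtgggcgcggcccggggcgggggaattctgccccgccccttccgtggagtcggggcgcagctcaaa
Insig1, chr5:28071162-28071411, plus strand: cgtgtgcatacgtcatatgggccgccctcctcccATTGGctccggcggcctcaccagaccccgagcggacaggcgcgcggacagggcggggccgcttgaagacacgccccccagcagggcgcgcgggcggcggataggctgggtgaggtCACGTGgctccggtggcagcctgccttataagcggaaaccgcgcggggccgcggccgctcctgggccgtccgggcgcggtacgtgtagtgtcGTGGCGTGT
Elovl6, chr3:129532136-129532385, plus strand: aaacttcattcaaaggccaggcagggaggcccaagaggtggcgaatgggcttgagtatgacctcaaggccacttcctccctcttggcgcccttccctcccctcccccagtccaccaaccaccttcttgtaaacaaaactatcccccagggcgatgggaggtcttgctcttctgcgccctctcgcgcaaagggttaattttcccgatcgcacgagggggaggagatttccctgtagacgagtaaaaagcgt
The Hmgcs1 window holds an exact sterol regulatory element that begins 137 bases before the start, a match with 1 mismatch at 220 bases, and 3 NF-Y boxes. In Srebf2 a match with 1 mismatch begins at 162 bases, beside an NF-Y box, and in Insig1 an E-box begins at 101 bases and a match with 1 mismatch at 9 bases. Elovl6, a gene that fell more than Srebf2 or Insig1, has none of the marked letters in this window, which says nothing of binding elsewhere.

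Windows of 300 bases (250 before and 50 after the start) were held for 22 of the 28 measured genes. An exact sterol regulatory element was in 1 of the 22 (4.55%), against 1.44% of all 27025 genes with a window, and a match with up to 1 mismatch was in 9 of the 22 (40.9%), against 26.7%. The NF-Y box was in 18 of the 22 (81.8%), against 41.1% of all genes, and the Sp1 box GGGCGG also in 18 (81.8%), against 38.2%. The E-box was in 5 (22.7%), against 8.09%. Windows were held for 15 of the 21 genes called lower in DOX and for all 7 not called. The genes without a window, Fdps among them, were thus all called ones, and the 2 groups were not covered alike. Among the 15 genes with a window that were called lower in DOX, 7 held a match with up to 1 mismatch, and among the 7 not called, 2 did. The NF-Y box was in 12 of these 15 and in 6 of these 7, whereas the E-box was in 2 of the 15 called genes and in 3 of the 7 not called. Motifs were sought on both strands, no motif contains another, and a gene with several starts counts if any window holds the letters. A match is a description of letters and not a bound site.

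The fatty acid branch fell as well, with 4 of its 5 synthesis and elongation genes and all 3 measured desaturases called lower in both comparisons. Acly, which splits citrate into cytosolic acetyl-CoA, lay at 6.23, 6.29 and 6.35 in DOX plus IFN-γ, at 6.46, 6.47 and 6.46 in DOX and at 7.54, 7.67 and 7.38 in Con. The control arrays lay about a log2 unit above the treated ones, with differences of -1.24 (SE 0.07) in DOX plus IFN-γ and -1.07 (SE 0.07) in DOX. Acss2, which makes acetyl-CoA from acetate, stood apart from this: it lay near the dim limit in every group and differed by -0.09 (95% interval -0.20 to 0.03) in DOX plus IFN-γ and by -0.06 (-0.17 to 0.06) in DOX.

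Acaca, the acetyl-CoA carboxylase that makes malonyl-CoA, lay at 6.61, 6.62 and 6.65 in DOX plus IFN-γ, at 6.71, 6.71 and 6.73 in DOX and at 8.31, 8.24 and 7.92 in Con. The treated arrays of each group lay within 0.1 log2 units of each other, and the difference was -1.53 (SE 0.09) in DOX plus IFN-γ and -1.44 (SE 0.09) in DOX. Fasn, the fatty acid synthase, lay at 5.18, 5.22 and 5.22 in DOX plus IFN-γ, at 5.24, 5.29 and 5.29 in DOX and at 6.14, 6.19 and 6.21 in Con. It had the smallest error of the 28 genes, with -0.97 (SE 0.04) in DOX plus IFN-γ and -0.90 (SE 0.04) in DOX. Elovl6, which lengthens palmitate to stearate, lay at 6.40, 6.51 and 6.16 in DOX plus IFN-γ, at 6.23, 6.19 and 6.27 in DOX and at 8.11, 7.70 and 7.50 in Con. Its control arrays were spread over 0.61 log2 units, and the difference of -1.41 (SE 0.15) in DOX plus IFN-γ and -1.54 (SE 0.15) in DOX was larger than that spread.

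Among the desaturases, Fads2, the first step toward long polyunsaturated fatty acids, lay at 8.74, 8.97 and 9.11 in DOX plus IFN-γ, at 9.24, 9.36 and 9.03 in DOX and at 10.89, 10.89 and 10.96 in Con. The control arrays lay more than 1.5 log2 units above the highest treated array, and the difference was -1.98 (SE 0.11, 3.93-fold lower) in DOX plus IFN-γ and -1.71 (SE 0.11, 3.27-fold lower) in DOX. A further Fads2 cluster ran the same way, with means of 4.72 in DOX plus IFN-γ, 5.12 in DOX and 5.76 in Con. Fads1, the delta-5 desaturase beside it in the pathway, lay at 7.15, 7.03 and 7.14 in DOX plus IFN-γ, at 7.22, 7.36 and 7.15 in DOX and at 8.09, 7.96 and 8.03 in Con. It fell less, by 0.92 in DOX plus IFN-γ (SE 0.07) and by 0.78 in DOX (SE 0.07).

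Scd1, the stearoyl-CoA desaturase that makes oleate, lay at 5.25, 5.12 and 5.16 in DOX plus IFN-γ, at 5.16, 5.29 and 5.16 in DOX and at 6.32, 6.33 and 6.14 in Con. The groups did not overlap, and the difference was -1.09 (SE 0.07) in DOX plus IFN-γ and -1.06 (SE 0.07) in DOX. Scd1 has near relatives in the mouse that can share probes, so which of them was measured is uncertain. A further Scd1 cluster was under the dim limit, at means of 3.27 in DOX plus IFN-γ, 3.21 in DOX and 3.50 in Con. With the clusters averaged, Scd1 differed by -0.66 in DOX plus IFN-γ and by -0.68 in DOX and was still called.

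The genes were also counted by their control mean, which is itself part of the difference, so the split is a description. Of the 18 genes with a control mean of at least 5, 16 were called lower in each comparison, with a median of -1.01 in DOX plus IFN-γ and -0.98 in DOX. Of the 10 with a lower control mean, 6 were called lower in DOX plus IFN-γ and 5 in DOX, with medians of -0.23 in DOX plus IFN-γ and -0.21 in DOX. Of all genes with a control mean of at least 5, 23.4% were called lower in DOX plus IFN-γ and 18.6% in DOX, against 2.4% in DOX plus IFN-γ and 1.97% in DOX below it. Means lay under the limit for 9 genes in DOX plus IFN-γ, 9 in DOX and 5 in Con, and falls that end there can be understated. Over all arrays 21 of the 28 genes had a mean above the limit, and of these 16 were called lower in each comparison. Among all genes above it, 20% were called lower and 17.4% higher in DOX plus IFN-γ, and 15.9% lower and 17.7% higher in DOX.

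**Figure D3:**
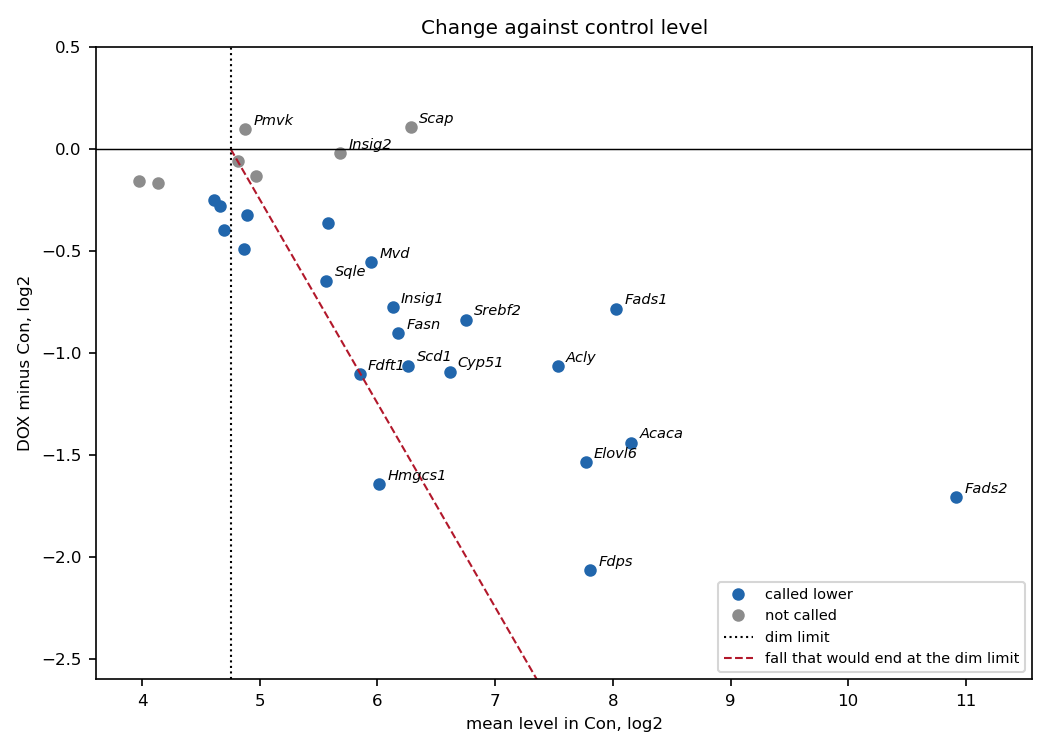
Difference DOX minus Con (log2) against the mean control level (log2) of each gene, blue where called lower; the dotted line is the dim limit of 4.75 and the dashed line marks falls that would end at it. Hmgcs1, Fdft1, Ebp and Dhcr7 lie past the dashed line, Fdps, Fads2, Acaca and Elovl6 well to its right, and Scap, Insig2 and Pmvk near 0.

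Adding interferon gamma to doxorubicin gave 0 called genes among the 28 by limma, and 0% of all 30050 genes were called. At an unadjusted p under 0.05 there were 2 of the 28 and 1503 of all genes (5.0%). These were Fads2, at -0.27 (SE 0.11, 95% interval -0.51 to -0.02, unadjusted p = 0.0358 and adjusted p = 0.976 by limma), and Acly, at -0.17 (SE 0.07, unadjusted p = 0.0491, adjusted p = 0.976 by limma). Fads2 replicate 3 of DOX plus IFN-γ lay above the lowest DOX array, whereas the Acly arrays of the 2 groups did not overlap. The median over the 28 genes was -0.07, beside -0.01 over all genes and -0.03 over genes above the dim limit. Of the 28, 20 were lower and 8 higher in DOX plus IFN-γ than in DOX. Lower values were seen in 16279 of all 30050 genes and in 7010 of the 11691 above the dim limit. In 8 of the 28, Acly among them, all DOX plus IFN-γ arrays lay below all DOX arrays, as in 2009 of all genes. In Insig2 they all lay above. Nothing is read from these counts. The 95% interval stayed within 0.5 log2 units of 0 for 26 of the 28, the exceptions being Fdps (-0.58 to 0.08) and Fads2. Differences smaller than the distance from the estimate to either end of its interval (median 0.16) could not be told from 0 with 3 arrays per group.

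Genes next to these pathways, taken from lists that hold none of the 28, were called in both directions. Of 11 other isoprenoid and sterol enzymes, 5 were called lower (45.5%) and 1 higher in DOX plus IFN-γ, and 3 lower (27.3%) and 1 higher in DOX. Of all genes, 9.41% were called lower and 8.01% higher in DOX plus IFN-γ, and 7.53% lower and 8.06% higher in DOX. The medians of the 11 were -0.14 in DOX plus IFN-γ and -0.08 in DOX. Tmem97, a sterol-binding membrane protein, fell by 1.14 in DOX plus IFN-γ (SE 0.10, adjusted p = 0.000148) and by 1.10 in DOX (SE 0.10, adjusted p = 0.000196). Lbr, the nuclear envelope protein with sterol reductase activity, differed by -0.55 in DOX plus IFN-γ and -0.53 in DOX. Aacs, an acetoacetyl-CoA synthetase, differed by -0.50 in DOX plus IFN-γ and by -0.47 in DOX. Pggt1b, a subunit of the geranylgeranyl transferase that consumes isoprenoids, rose by 0.67 in DOX plus IFN-γ and 0.54 in DOX.

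Of 11 genes of SREBP processing and degradation, 5 were called lower (45.5%) and 2 higher in DOX plus IFN-γ, and 4 lower (36.4%) and 2 higher in DOX. All 11 lay above the dim limit, where 20% of genes were called lower in DOX plus IFN-γ and 15.9% in DOX. Called higher there were 17.4% in DOX plus IFN-γ and 17.7% in DOX. Sec24d, a cargo receptor of the COPII vesicles that leave the endoplasmic reticulum, averaged 5.91 ± 0.05 in DOX plus IFN-γ, 5.93 ± 0.04 in DOX and 7.14 ± 0.05 in Con (SD, n = 3 each). Its fall was -1.23 in DOX plus IFN-γ (SE 0.05, adjusted p = 5.74e-06 by limma) and -1.20 in DOX (SE 0.05, adjusted p = 5.90e-06 by limma). Rnf145, a sterol-regulated ubiquitin ligase, fell by 0.80 in DOX plus IFN-γ and 0.71 in DOX. Mbtps1, the site-1 protease that first cuts the SREBPs, differed by -0.62 in DOX plus IFN-γ and by -0.60 in DOX. Pgrmc1, a heme-binding membrane protein, rose instead and averaged 8.65 ± 0.24 in DOX plus IFN-γ, 8.87 ± 0.08 in DOX and 7.21 ± 0.26 in Con (SD, n = 3 each). Fbxw7, the ubiquitin ligase subunit that marks nuclear SREBPs for degradation, rose by 0.67 in DOX plus IFN-γ and by 0.56 in DOX.

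Genes of sterol uptake, storage and efflux were called in both directions. In DOX plus IFN-γ 5 of 19 were called higher and 4 lower (21.1%), beside 8.01% higher and 9.41% lower of all genes. In DOX 5 were called higher and 2 lower (10.5%), beside 8.06% higher and 7.53% lower of all genes. Among the 19, 10 lay above the dim limit, where 20% of genes were called lower in DOX plus IFN-γ and 15.9% in DOX. There 17.4% were called higher in DOX plus IFN-γ and 17.7% in DOX. Abca1, the pump that hands cholesterol to apolipoprotein A-I, rose by 0.99 in DOX plus IFN-γ (SE 0.07, adjusted p = 4.26e-05) and by 1.02 in DOX (SE 0.07, adjusted p = 3.77e-05). Osbp, a sterol transfer protein, rose by 0.69 in DOX plus IFN-γ and 0.71 in DOX, and Vldlr, a lipoprotein receptor, by 0.69 in DOX plus IFN-γ and 0.65 in DOX. Lpcat3, which places polyunsaturated chains in phospholipids, fell by 0.76 in DOX plus IFN-γ and 0.72 in DOX. Lrp8, a further lipoprotein receptor, differed by -0.68 in DOX plus IFN-γ and by -0.69 in DOX.

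Of 22 other genes of fatty acid and glyceride synthesis, 6 were called lower (27.3%) and 3 higher in DOX plus IFN-γ, and 5 lower (22.7%) and 3 higher in DOX. Of all genes, 9.41% were called lower and 8.01% higher in DOX plus IFN-γ, and 7.53% lower and 8.06% higher in DOX. Among the 22, 17 lay above the dim limit, where 20% of genes were called lower and 17.4% higher in DOX plus IFN-γ. In DOX 15.9% of genes above the limit were called lower and 17.7% higher. Tecr, a reductase of the elongation cycle, was lower by a difference of -1.01 in DOX plus IFN-γ and -0.77 in DOX, and the elongase Elovl5 by -0.89 in DOX plus IFN-γ and -0.81 in DOX. The other listed elongases Elovl1, Elovl3 and Elovl7 were not called, with Elovl1 at -0.31 in DOX plus IFN-γ and -0.16 in DOX. Dgat2, which makes triglyceride from diglyceride, rose and averaged 8.42 ± 0.13 in DOX plus IFN-γ, 8.62 ± 0.25 in DOX and 6.68 ± 0.16 in Con (SD, n = 3 each). Acsl5, an acyl-CoA synthetase, rose by 1.22 in DOX plus IFN-γ (SE 0.15) and by 1.32 in DOX (SE 0.15). Within the lipid genes, both Dgat2 and Acsl5 were higher while the synthase, carboxylase and desaturase genes were lower.

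**Figure D4:**
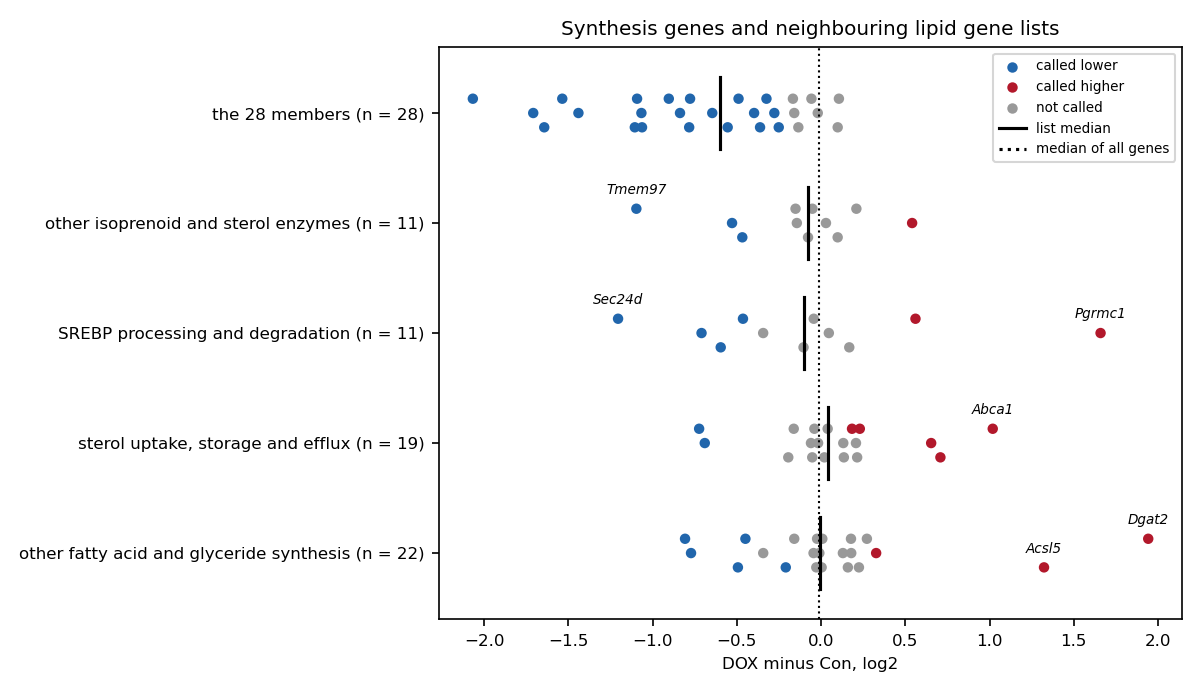
Difference DOX minus Con (log2) of every measured gene of the 28 and of the 4 neighbouring lists, red where called higher, blue where called lower and grey where not called; thick ticks are list medians and the dotted line the median of all genes. The median is -0.60 for the 28 genes and between -0.10 and 0.04 for the other lists.

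The labelled cell type was checked against its markers. Of 7 measured cardiomyocyte markers only Tnnt2 and Nkx2-5 lay above the dim limit. Myh6, Nppa, Myl7, Gata4 and Tnni3 did not, so most of these markers do not bear out the labelled cell type. The summed level of the cardiomyocyte list ranged over 7.82 to 7.83 in DOX plus IFN-γ, 7.87 to 7.94 in DOX and 8.46 to 8.67 in Con. Of the 7, 2 were called lower in DOX plus IFN-γ and 1 in DOX, and 0 higher in either. Tnnt2, the brightest of them, differed from Con by -1.42 in DOX plus IFN-γ and by -1.24 in DOX. Nkx2-5 differed by -0.27 in DOX plus IFN-γ (called) and by -0.18 in DOX (not called). Tnni3 was not called, at 0.01 in DOX plus IFN-γ and -0.02 in DOX. Myh6, Nppa, Myl7 and Gata4 differed by 0.04 to 0.18 in both comparisons and were not called, so the sum does not describe the list as a whole. Of 4 fibroblast markers the 3 collagen genes were called lower in each comparison and Dcn was dim. Their summed level, on the log2 scale, ranged over 16.65 to 16.69 in DOX plus IFN-γ, 16.67 to 16.78 in DOX and 17.70 to 17.96 in Con. This sum is set almost wholly by Col1a1, with means of 16.62 in DOX plus IFN-γ, 16.67 in DOX and 17.80 in Con. The part of these marker shifts in the falls above was not tested. All 5 adipocyte and all 4 hepatocyte markers, which mark cell types rich in these pathways, lay under the dim limit, as did the 4 immune and 4 endothelial markers. Of the 4 skeletal muscle markers 3 lay above it, with 2 called lower in DOX plus IFN-γ and 2 lower and 1 higher in DOX, and sums of 8.14 to 8.37 in DOX plus IFN-γ, 8.35 to 8.62 in DOX and 9.37 to 9.64 in Con. Myog differed from Con by -3.57 in DOX plus IFN-γ and by -3.42 in DOX, whereas Myod1 differed by 0.30 in DOX plus IFN-γ and by 0.76 in DOX. Fewer cells of a type and less RNA per cell cannot be told apart in such bulk RNA.

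A set of 6 arrays shared identical values, and why is not known. Con replicate 1, the DOX arrays and DOX plus IFN-γ replicates 1 and 2 shared 82 to 186 exactly identical values in each pair, and all other pairs 1 to 17. Within the sharing set the median over the 28 genes was -0.67 in DOX plus IFN-γ against Con and -0.58 in DOX against Con, and among the remaining arrays it was -0.63 in DOX plus IFN-γ against Con. Fdps in DOX plus IFN-γ differed from Con by -2.30 in the sharing set and by -2.17 among the other 3 arrays, and in DOX by -1.94 in the sharing set. These fits rest on as little as 1 array in a group, whose spread is assumed to equal that of the other groups. In them the DOX calls of Mvd, Lss, Nsdhl, Ebp, Insig1 and Stard4 were lost, although each remained lower, with differences of -0.46 for Mvd and -0.65 for Insig1 the largest. The DOX plus IFN-γ calls of Idi1, Lss, Nsdhl, Hsd17b7, Ebp, Dhcr7, Insig1 and Stard4 were lost in the sharing set, among the other 3 arrays or in both, although each remained lower in both. Dhcr7 differed from Con by -0.46 in the sharing set and by -0.49 among the other arrays, Insig1 by -0.68 in the sharing set and -1.14 among the others, and Stard4 by -0.21 in the sharing set and -0.27 among the others.

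**Figure D5:**
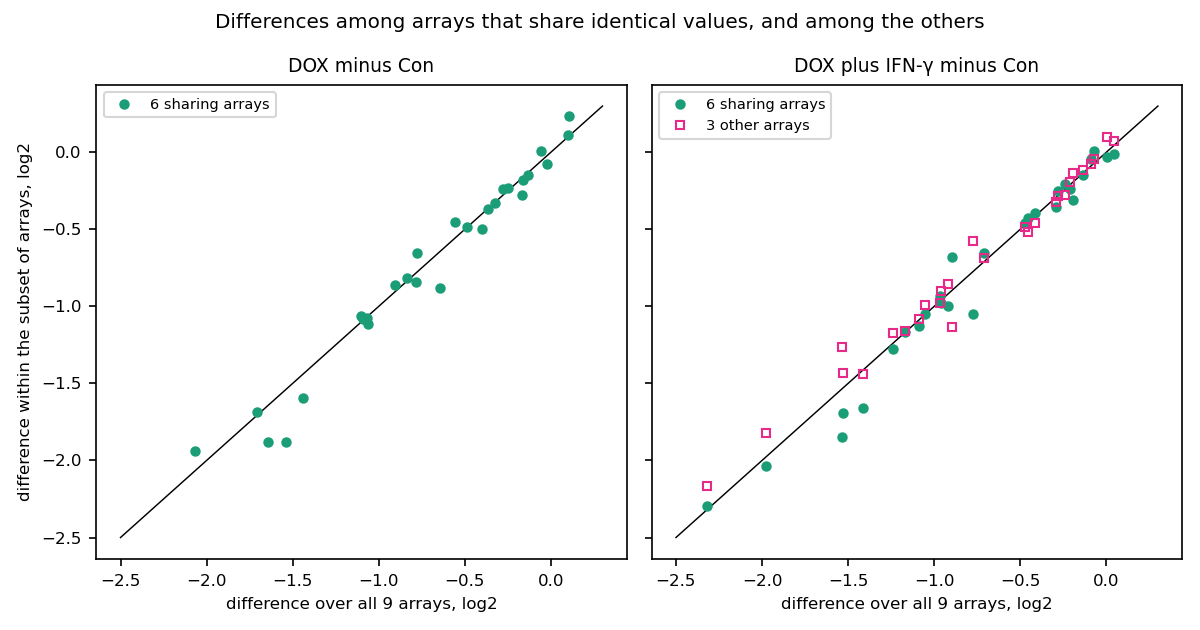
Difference within a subset of the arrays (log2, vertical) against the difference over all 9 arrays (log2, horizontal) for the 28 genes, with the line of equality; filled circles are the 6 arrays that share identical values and open squares the other 3. Points follow the line in both comparisons, with Fdps lowest at -2.30 in the sharing arrays and -2.17 in the others in DOX plus IFN-γ minus Con.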

How the data were processed

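Values deposited by the authors are on a log2 scale, judged from their range of 2.29 to 19.93, for 65527 transcript clusters on 9 arrays. RMA made them, per the submitters' processing notes, which state no settings. RMA compresses differences of dim probes. The platform annotation gave a single symbol for 30376 clusters, several for 2117, and did not list 33034. These made 30050 genes, the cluster with the highest mean standing for the 245 with several. Array medians lay between 4.08 and 4.17, and no further normalization was applied. Precision is limited by the number of arrays.

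Group means were fitted to all 9 arrays with limma 3.58.1 (lmFit, eBayes) in R 4.3.3, with 6 residual and 2.41 prior degrees of freedom, two-sided, and p-values were adjusted over all 30050 genes and called under 0.05. The procedure was tested on simulated data. The members, lists, motifs and tests were chosen with earlier results of these data known. Values on every array are given for members called with a difference of at least 0.5 and for Srebf1, Srebf2, Scap, Insig1 and Insig2 where measured, and of other lists up to 4 called genes by size in each comparison, as differences or group means. The elongases not called were named after their values were seen. The main fit did not pair arrays by replicate number. Correlations of same-numbered deviations ranged over -0.16 to 0.36. The highest were 0.36 for replicates 1 of DOX plus IFN-γ and Con, both in the sharing set, and 0.33 for their replicates 3, both outside it. Among differently numbered arrays the highest was 0.28. Pairing apart from the sharing set was not tested. Alternatives were quantile normalization, a filter on dim genes, a replicate block, an array set block, fits of 2 groups, a variance trend, mean clusters and leaving out each array.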

Additional observations from a re-analysis of the deposited data

How the results depend on the processing

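Of the 21 members called lower in DOX minus Con, 18 kept the call under every other normalization, filter, block, fit and single array left out in which they were tested, the exceptions being Nsdhl, Ebp and Stard4. Of the 22 in DOX plus IFN-γ minus Con, 19 did, the exceptions being Idi1, Hsd17b7 and Stard4. Leaving out single arrays gave 18 to 22 lower members in DOX minus Con, and the replicate block gave 20, with 22 in DOX plus IFN-γ minus Con. Leaving out dim genes kept 21 of the 28 members, so that dim ones such as Lss and Dhcr7 were not tested under it, and gave 16 lower in each. Fits within subsets of the arrays were chosen after seeing the data and have fewer arrays. In the set that shares identical values they gave 14 lower members in DOX plus IFN-γ minus Con and 15 in DOX minus Con. Over all genes they gave 1217 lower and 881 higher in DOX plus IFN-γ minus Con in that set, 1068 lower and 1033 higher among the other 3 arrays, and 1209 lower and 1119 higher in DOX minus Con. In DOX plus IFN-γ minus DOX, 0 to 1 of all genes were called lower when single arrays were left out, with 1 without Con replicate 3.

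Differences near 0 changed sign in genes that were not called. With single arrays left out, Insig2 ranged over -0.045 to 0.0081 in DOX minus Con, turning without Con replicate 1, and it lay at -0.0114 in DOX plus IFN-γ minus Con within the sharing set. Acss2 lay at 0.0088 in DOX minus Con within that set. In DOX plus IFN-γ minus Con, Pmvk ranged over -0.0411 (without DOX plus IFN-γ replicate 3) to 0.0472, with -0.0183 without Con replicate 2, and lay at -0.0286 within the sharing set. In the same comparison Scap ranged over -0.1385 to 0.0017 (without Con replicate 3) and lay at 0.0102 within the sharing set. The cause was not tested. Members at or under the dim limit have the least certain sizes.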
